A study of Mus musculus with 4 samples.

Results

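The proteases that cut antigens in endosomes and lysosomes, and the secreted inhibitor that restrains many of them, were followed through 4 arrays of mouse dendritic cells. The 10 genes were taken by symbol: the cathepsin genes Ctsb, Ctsc, Ctsd, Ctsh, Ctsk, Ctsl, Ctss and Ctsz, the legumain gene Lgmn and the cystatin C gene Cst3. All 10 were measured, each by 1 probe set, among 19938 genes that could be named. Bone marrow was cultured for 10 days with 20 ng/mL GM-CSF and 10% serum, which yields dendritic cells, and every culture then received an siRNA by electroporation. The conditions were NR4A3 siRNA with LPS, control siRNA with LPS, NR4A3 siRNA without LPS and control siRNA without LPS, with 1 array each. NR4A3 is a DNA-binding nuclear receptor with no known natural ligand, and LPS is the bacterial cell wall component sensed by TLR4. LPS was given at 100 ng/mL starting 24 hours after the siRNA, and RNA was taken another 24 hours later. The labels name BALB/c in the growth protocol and C57BL/6 in the sample fields, and give neither the siRNA sequence nor the number of mice. C57BL/6 mice carry a deletion that silences H2-Ea, and H2-Ea stood between 13.48 and 13.62 on the 4 arrays. The strain is not settled here.

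Cathepsins are made as inactive precursors and become active in the acid of endosomes and lysosomes. In dendritic cells they trim the invariant chain from MHC class II molecules, cut proteins into peptides and process endosomal toll-like receptors. Most are cysteine proteases of the papain family, while cathepsin D is an aspartic protease and legumain cuts after asparagine. Cystatin C blocks papain-type proteases, and dendritic cells tune antigen processing by the balance of enzyme, inhibitor and acidity.

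All levels are log2 values after RMA, the authors' summary of probe signals, and ran from 4.21 to 14.27. With 1 array per condition a difference between 2 arrays has no test, so 1.5-fold (0.58 on the log2 scale) was used as a mark of size. Average effects of the siRNA and of LPS were tested with limma in an additive fit over the 4 arrays, on 10592 genes that reached the median of named genes, 6.66, on at least 1 array. That fit has 1 residual degree of freedom and borrows the rest of its spread from all genes, so its p-values reflect no more than the scatter among 4 arrays. A gene is called here where its adjusted p was under 0.05. Nr4a3 itself stood at 9.39 with NR4A3 siRNA and LPS, against 11.77 with control siRNA and LPS. Without LPS Nr4a3 stood at 7.15 with NR4A3 siRNA, against 11.21 with control siRNA. It was 5.21-fold lower with NR4A3 siRNA in LPS-treated cells and 16.6-fold lower in unstimulated cells. Of the defining dendritic cell markers, Itgax lay between 12.38 and 12.89 and H2-Aa between 12.73 and 13.05, whereas Flt3 stayed below 6.66 on all 4 arrays and Zbtb46 reached at most 7.46.

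Ctsk was the member that changed. It encodes cathepsin K, a collagen-cutting cysteine protease best known as the matrix protease of osteoclasts and linked in mouse dendritic cells to TLR9 signalling. Ctsk stood at 11.70 with NR4A3 siRNA and LPS, against 10.91 with control siRNA and LPS. Without LPS Ctsk stood at 11.09 with NR4A3 siRNA, against 10.45 with control siRNA. The highest level was thus in LPS-treated cells with NR4A3 siRNA and the lowest in unstimulated cells with control siRNA, and cells given only 1 of the treatments lay between them. The NR4A3 siRNA arrays were 1.74-fold higher than control siRNA arrays with LPS and 1.55-fold higher without. The LPS arrays were 1.53-fold higher than unstimulated arrays under NR4A3 siRNA and 1.37-fold higher under control siRNA. Averaged over both states, Ctsk rose with NR4A3 siRNA by 0.71 ± 0.10 (log2, SE), a 1.64-fold change with an adjusted p of 0.024 in limma's additive fit. Averaged over both siRNAs, it rose with LPS by 0.53 ± 0.10, a 1.45-fold change with an adjusted p of 0.013. The LPS difference was larger by 0.16 under NR4A3 siRNA, a value with no test. Over 8 alternative settings the adjusted p for silencing ran from 0.015 to 0.053, the last without a filter on dim genes, and that for LPS from 0.0079 to 0.032. In RNA of whole cultures, more cells that carry a transcript and more of that transcript per cell cannot be told apart.

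**Figure D1:**
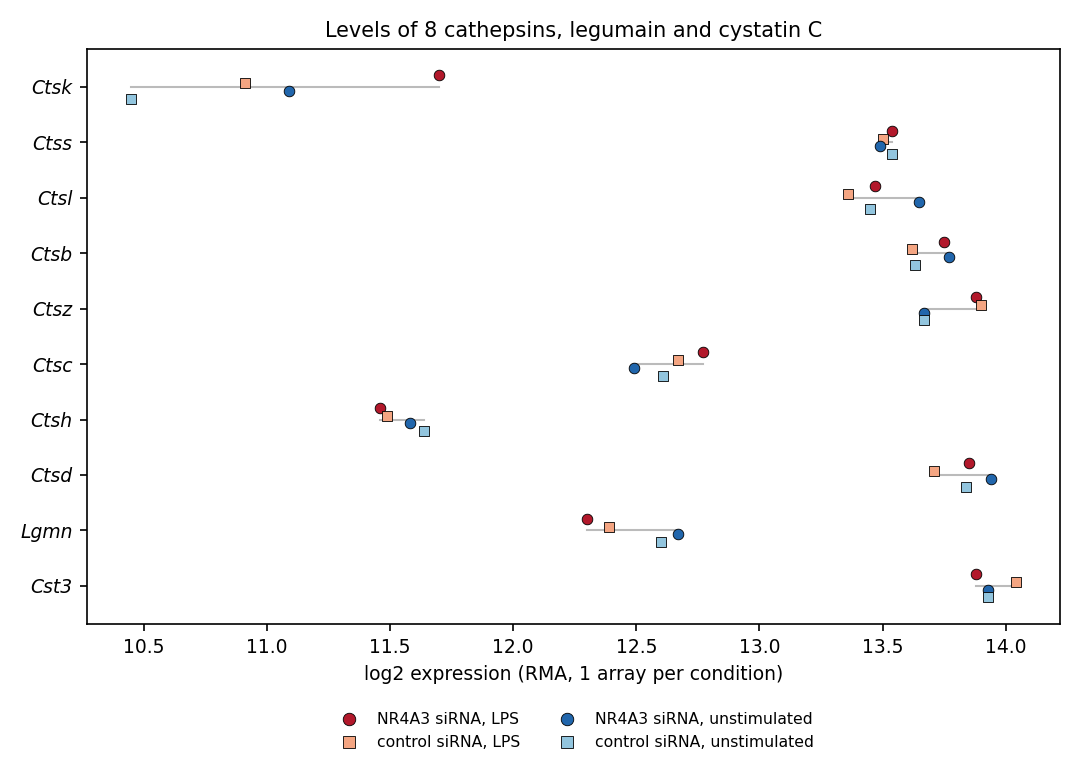
Levels of the 10 genes (log2, 1 point per array) with NR4A3 siRNA (circles) and control siRNA (squares), with LPS (red shades) and without (blue shades); grey lines span the 4 arrays. Ctsk runs between 10.45 and 11.70, and each of the other 9 genes spans at most 0.37.

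Ctsk and Ctss are neighbours in the RefSeq annotation, with Ctss the next protein-coding gene after Ctsk on chromosome 3 and on the same strand. Ctss encodes cathepsin S, the protease that completes removal of the invariant chain in mouse dendritic cells and B cells. Ctss stood at 13.54 with NR4A3 siRNA and LPS, against 13.50 with control siRNA and LPS. Without LPS Ctss stood at 13.49 with NR4A3 siRNA, against 13.54 with control siRNA. The 4 arrays spanned only 0.06 for Ctss, less than any of the 4 pairwise differences of its neighbour. The 250 bases before the RefSeq start of each gene are shown because these neighbours differ so much in their range over the arrays. They are from build GRCm38.p6, plus strand, at chr3:95498960-95499209 for Ctsk and chr3:95526536-95526785 for Ctss. Capitals mark every match to 7 motifs searched on both strands, written here with N for any base.
Ctsk: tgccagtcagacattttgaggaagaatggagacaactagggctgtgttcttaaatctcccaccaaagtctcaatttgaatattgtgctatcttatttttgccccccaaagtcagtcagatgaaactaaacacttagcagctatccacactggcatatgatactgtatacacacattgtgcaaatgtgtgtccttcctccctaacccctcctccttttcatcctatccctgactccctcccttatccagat
Ctss: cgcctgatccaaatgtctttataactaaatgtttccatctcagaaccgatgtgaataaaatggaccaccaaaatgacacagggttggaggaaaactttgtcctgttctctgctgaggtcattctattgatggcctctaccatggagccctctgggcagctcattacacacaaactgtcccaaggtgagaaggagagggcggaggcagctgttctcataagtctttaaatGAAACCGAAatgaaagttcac
The Ctsk window held no match to any of the 7, and the Ctss window held 1, to the interferon response element core GAAANNGAA, at 21 to 13 bases before the start. That core occurs in 7.13% of 32851 such windows in the RefSeq table. The other motifs were the NR4A element AAAGGTCA (1.34% of windows), the E-box CACGTG of lysosomal genes (6.02%), the GAS core TTCNNNGAA (7.02%), the NF-kB form GGGNNTTCC (4.98%), the AP-1 site TGANTCA (6.75%) and the PU.1 site GAGGAAGT (2.44%). Windows were found for 8 of the 10 genes, 9 windows in all, with 2 starts for Lgmn and none for Ctsb and Ctsh. The E-box was in 3 of the 9 windows, those of Ctsd, Ctsl and 1 start of Lgmn. The GAS core and the PU.1 site were each in 1, that of Ctsc, and the NF-kB form was in 1, of Lgmn. The NR4A element and the AP-1 site were in none. With 9 windows, the absence of motifs this rare says little.

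The other endopeptidases of the papain type showed small differences. Ctsl encodes cathepsin L, which removes the invariant chain in mouse thymic epithelium. Ctsl stood at 13.47 with NR4A3 siRNA and LPS, against 13.36 with control siRNA and LPS. Without LPS Ctsl stood at 13.65 with NR4A3 siRNA, against 13.45 with control siRNA. Silencing thus went with a difference of 0.12 and 0.20 in the same direction, well short of 1.5-fold. Ctsb encodes cathepsin B, which cuts both within chains and from their ends. Ctsb stood at 13.75 with NR4A3 siRNA and LPS, against 13.62 with control siRNA and LPS. Without LPS Ctsb stood at 13.77 with NR4A3 siRNA, against 13.63 with control siRNA. Both NR4A3 siRNA arrays lay above both control siRNA arrays for Ctsb, by at most 0.16 over all 4.

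Cathepsins that trim peptides from their ends followed. Ctsz encodes cathepsin Z, a carboxypeptidase. Ctsz stood at 13.88 with NR4A3 siRNA and LPS, against 13.90 with control siRNA and LPS. Without LPS Ctsz stood at 13.67 with either siRNA. Both LPS arrays lay above both unstimulated arrays, by 0.21 under NR4A3 siRNA and 0.24 under control siRNA, while the siRNAs differed by 0.02 at most. Ctsc encodes cathepsin C, a dipeptidyl peptidase that activates serine proteases of leukocyte granules. Ctsc stood at 12.77 with NR4A3 siRNA and LPS, against 12.67 with control siRNA and LPS. Without LPS Ctsc stood at 12.49 with NR4A3 siRNA, against 12.61 with control siRNA. Ctsc was highest with both treatments and lowest with NR4A3 siRNA alone, and its LPS difference was 0.28 under NR4A3 siRNA and 0.06 under control siRNA. Ctsh encodes cathepsin H, an aminopeptidase. Ctsh stood at 11.46 with NR4A3 siRNA and LPS, against 11.49 with control siRNA and LPS. Without LPS Ctsh stood at 11.58 with NR4A3 siRNA, against 11.64 with control siRNA. Both LPS arrays lay below both unstimulated arrays for Ctsh, by 0.12 under NR4A3 siRNA and by 0.15 under control siRNA.

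Cathepsin D and legumain lie outside the papain family. Ctsd stood at 13.85 with NR4A3 siRNA and LPS, against 13.71 with control siRNA and LPS. Without LPS Ctsd stood at 13.94 with NR4A3 siRNA, against 13.84 with control siRNA. The differences between the siRNAs were 0.14 and 0.10, both upward. Legumain opens some antigens to further cutting and matures cathepsin precursors. Lgmn stood at 12.30 with NR4A3 siRNA and LPS, against 12.39 with control siRNA and LPS. Without LPS Lgmn stood at 12.67 with NR4A3 siRNA, against 12.60 with control siRNA. Both LPS arrays lay below both unstimulated arrays for Lgmn, by 0.37 under NR4A3 siRNA and by 0.21 under control siRNA. Its average LPS effect was -0.29 ± 0.10, with an unadjusted p of 0.031 and an adjusted p of 0.083 in the additive fit (limma). It passed under 2 of 8 alternatives, with an adjusted p of 0.029 when the spread was allowed to depend on the level.

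The gene of the inhibitor showed no steady direction. Cst3 stood at 13.88 with NR4A3 siRNA and LPS, against 14.04 with control siRNA and LPS. Without LPS Cst3 stood at 13.93 with either siRNA. The array with control siRNA and LPS was the highest for Cst3 and the array with NR4A3 siRNA and LPS the lowest, 0.16 apart.

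**Figure D2:**
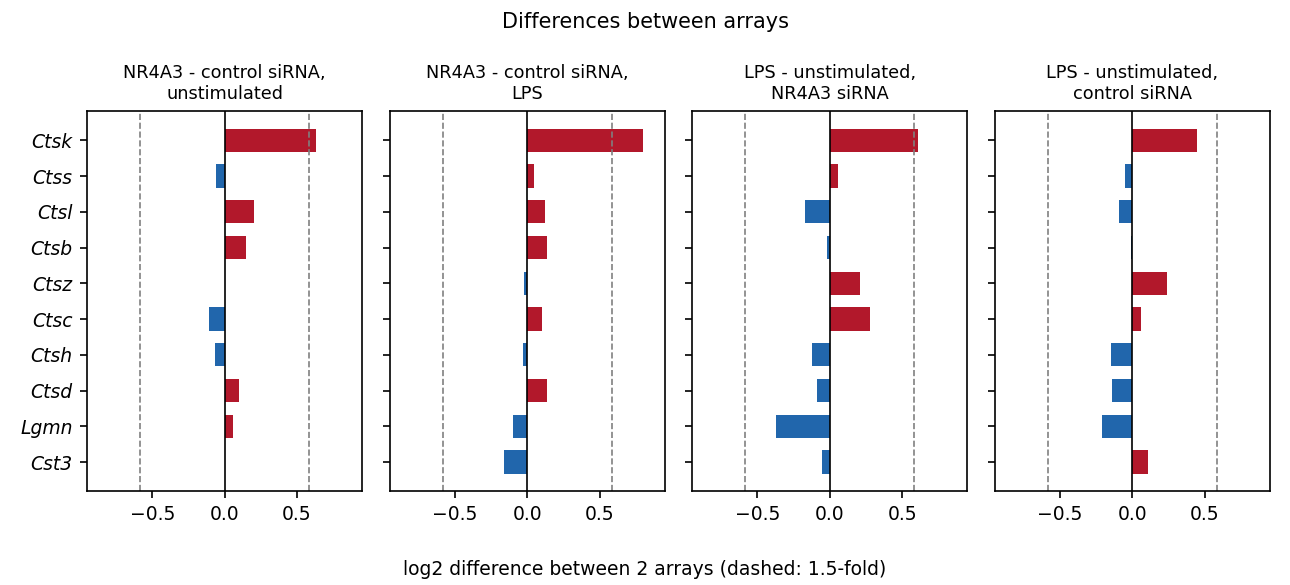
Log2 differences of the 10 genes between pairs of arrays, for NR4A3 against control siRNA without and with LPS and for LPS against unstimulated cells under either siRNA; dashed lines mark 1.5-fold. Ctsk reaches the mark in 3 of the 4 panels (0.63, 0.80 and 0.61) and stands at 0.45 in the last.

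Counted together, 1 of the 10 genes, Ctsk, was at least 1.5-fold apart between NR4A3 and control siRNA, both with LPS, where 8.46% of the genes past the filter were, and without LPS, where 6.31% were. Between LPS-treated and unstimulated cells, 1 of 10 passed under NR4A3 siRNA, where 17.2% of genes did, and 0 of 10 under control siRNA, where 19.7% did. For the difference of the LPS effects 0 of 10 passed, against 5.02% of genes. With 10 genes, counts of 1 and 0 lie near these background shares or below them, so they are no result about the group. The median difference of the 10 genes between the siRNAs was 0.08 with LPS and 0.03 without, beside 0.05 and 0.02 over all genes past the filter. Between LPS and no LPS it was -0.04 under NR4A3 siRNA and -0.03 under control siRNA, beside 0.02 and -0.02 over all genes.

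In the additive fit, Ctsk was the gene called higher with NR4A3 siRNA, 1 of 10 against 1.98% of all genes, and 0 of 10 were called lower against 3.58%. For LPS it was again Ctsk, 1 of 10 higher against 15.6% of all genes, and 0 of 10 lower against 14.4%. At an unadjusted p under 0.05 limma gave 0 genes lower with NR4A3 siRNA and 1, Lgmn, lower with LPS. For the 9 genes not called, the average effect of silencing lay between -0.08 for Cst3 and 0.16 for Ctsl. Their 95% intervals reached from -0.33 to 0.40, that is, a level up to 1.26-fold lower or 1.32-fold higher. Average LPS effects of the 9 lay between -0.29 for Lgmn and 0.23 for Ctsz, and their intervals reached from -0.54 to 0.46. All 9 intervals thus stayed within 1.5-fold for either effect in the main setting, without showing that there was no change. They reflect no more than the scatter among 4 arrays, so they do not bound the change across cultures or mice. Under repeated quantile normalization the average LPS effect of Lgmn was -0.40, and its interval in that setting is not given here. For Ctsk the interval was 0.46 to 0.97 for silencing and 0.28 to 0.79 for LPS.

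**Figure D3:**
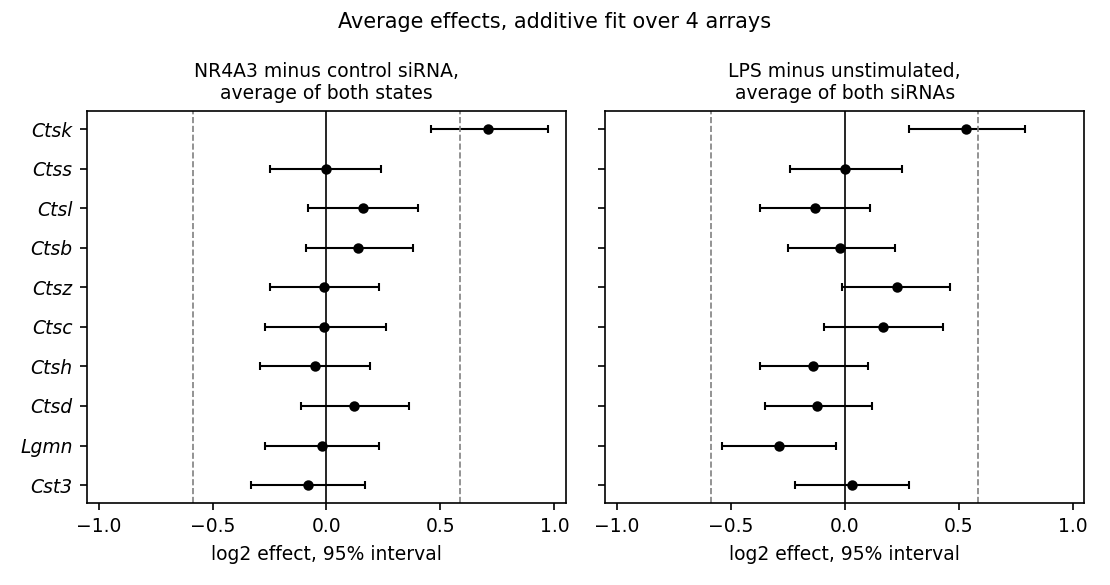
Average log2 effects of NR4A3 siRNA (left) and of LPS (right) with 95% intervals from the additive fit over 4 arrays; dashed lines mark 1.5-fold. The intervals of Ctsk exclude 0 in both panels, and that of Lgmn excludes 0 for LPS (-0.54 to -0.04) although its adjusted p was 0.083.

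Signal strength was read beside the small differences. The members Cst3, Ctsd, Ctsz, Ctsb, Ctss and Ctsl averaged 13 or more, where the highest values of the arrays were 14.20 to 14.27. Among the 103 genes at such levels, 0.971% were at least 1.5-fold apart between the siRNAs with LPS and 1.94% without. For LPS against no LPS the shares were 5.83% under NR4A3 siRNA and 8.74% under control siRNA. All of these are below the shares of all genes given above. Ctsk averaged 11.04 and Ctsh 11.54, clear of that range, and the part of compression in the small differences was not tested.

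The genes whose pattern over the 4 arrays was most like that of Ctsk were found among all genes past the filter. After each gene was centred on its own mean, Ampd3, an AMP deaminase, came closest with a root mean square difference of 0.054 on the log2 scale. Ralgds, a Ral guanine nucleotide exchange factor, followed at 0.064, and the transcript I730030J21Rik at 0.068. Ampd3 stood at 10.22 with NR4A3 siRNA and LPS, against 9.48 with control siRNA and LPS, and without LPS at 9.56 with NR4A3 siRNA, against 9.07 with control siRNA. With 4 arrays such likeness is a description only.

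Markers of other cells were read beside Ctsk. Over all genes 1.98% were called higher with NR4A3 siRNA and 3.58% lower. Of 11 macrophage markers 4 were called higher with NR4A3 siRNA and 0 lower (0 lower also at an unadjusted p under 0.05, limma). They were the complement genes C1qb (1.61 ± 0.20, log2, SE), C1qc (1.52 ± 0.16) and C1qa (1.07 ± 0.10) and the mannose receptor gene Mrc1 (0.63 ± 0.10). The C1qb call was lost without a filter and under the robust fit, and the Mrc1 call under cyclic loess and without a filter, while those of C1qa and C1qc held in all 8 alternatives. The summed linear signal of the macrophage list was 38148 with NR4A3 siRNA and 31159 with control siRNA in LPS-treated cells, and 35766 and 29805 in unstimulated cells. Bright genes weigh most in it, among them Adgre1 (13.07 against 12.61 with LPS) and Csf1r (12.74 against 12.04), neither called for silencing. Averages over both states were above 0 for 9 of the 11 markers, and below 0 for Cd14 (-0.23) and Fcgr1 (-0.06). With LPS 6 macrophage markers were called lower and 3 higher, beside 14.4% and 15.6% of all genes. The higher ones were Fcgr1 (2.62 ± 0.10), Adgre1 (1.68 ± 0.11) and Cd14 (0.72 ± 0.12). The lower ones were the 4 named above, Apoe (-0.60 ± 0.10) and Mertk (-0.39 ± 0.10). The summed signal of the list was higher with LPS than without under either siRNA. Of 8 osteoclast markers, 6 passed the filter and 0 were called for silencing, with 1 higher at an unadjusted p under 0.05. Their summed signal was 17684 with NR4A3 siRNA and 14173 with control siRNA under LPS, and 18524 and 16628 without. The calcitonin receptor gene Calcr and Oscar stayed below the filter on all 4 arrays. The summed signal of the dendritic cell list was 47802 with NR4A3 siRNA and 53243 with control siRNA under LPS, and 40182 and 50275 without. Such a sum is weighted to the brightest genes. Within the list the chemokine receptor gene Ccr7 stood at 12.64 with NR4A3 siRNA and LPS, against 13.38 with control siRNA and LPS. Without LPS Ccr7 stood at 9.46 with NR4A3 siRNA, against 12.99 with control siRNA. The siRNA difference of Ccr7 was thus -0.74 with LPS and -3.53 without, and the additive fit counts that gap as residual spread. In that fit Ccr7 was not called for silencing (-2.13 ± 0.59, adjusted p of 0.095, limma). Ccl22 stood at 13.60 against 13.64 with LPS and 12.02 against 13.04 without. Averages over both states were above 0 for 2 of the 10 list genes. These were Cd209a (10.87 against 8.90 without LPS, 5.81 against 5.63 with it) and Itgax, and the list median was -0.13. The part of these cell types in the Ctsk values was not tested. Of the remaining marker lists, 0 genes of dendritic cells (9 past the filter), monocytes (3), neutrophils (1), mast cells and basophils (2), eosinophils (1) and fibroblasts and endothelium (4) were called for silencing. At an unadjusted p under 0.05, limma gave 1 dendritic cell marker higher and 2 lower and 1 monocyte marker lower. The lack of calls does not show that these markers were unchanged. No marker of B cells, T and NK cells or erythroid cells passed the filter.

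Outside the 10 genes, 15 further cathepsin symbols were looked up, of which 13 were measured and 4 passed the filter. The 9 dim ones lay between 4.41 and 5.74. Ctse encodes cathepsin E, an aspartic protease of endosomes. Ctse stood at 9.91 with NR4A3 siRNA and LPS, against 9.14 with control siRNA and LPS. Without LPS Ctse stood at 11.22 with NR4A3 siRNA, against 10.73 with control siRNA. Both LPS arrays lay below both unstimulated arrays, and Ctse fell with LPS by 1.45 ± 0.11 (log2, SE, adjusted p of 0.00055, limma), whereas Ctsk rose. Ctse rose with NR4A3 siRNA by 0.63 ± 0.11 (adjusted p of 0.039). Ctso, a papain-type cathepsin, stood at 10.25 with NR4A3 siRNA and LPS, against 10.04 with control siRNA and LPS. Without LPS Ctso stood at 9.88 with NR4A3 siRNA, against 9.50 with control siRNA. Ctso rose with LPS by 0.46 ± 0.10 (adjusted p of 0.022), and its silencing effect of 0.30 was not called (adjusted p of 0.14). Ctsa, the protective carboxypeptidase, and Ctsf, which trims the invariant chain in mouse macrophages, were called for neither effect. Ctsa lay between 13.07 and 13.46 and Ctsf between 7.81 and 8.26.

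Of 21 further inhibitor symbols 18 were measured and 6 passed the filter, and the 12 dim ones lay between 4.31 and 6.20. Cst7 encodes cystatin F, an inhibitor that enters lysosomes and acts on cathepsin C. Cst7 stood at 11.28 with NR4A3 siRNA and LPS, against 10.83 with control siRNA and LPS. Without LPS Cst7 stood at 8.04 with NR4A3 siRNA, against 7.48 with control siRNA. Cst7 thus rose with LPS by 3.30 ± 0.10 (9.84-fold, adjusted p of 3.8e-05, limma), while Cst3 had an LPS interval of -0.22 to 0.28. It rose with NR4A3 siRNA by 0.51 ± 0.10 (adjusted p of 0.046). Cstb, the cytosolic stefin B gene, lay between 12.93 and 13.28 and was called for neither effect.

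Of the 6 inhibitor genes past the filter, cystatins and serpins together, 2 were called lower with NR4A3 siRNA and 1, Cst7, higher (limma). Both lower ones were among the 4 intracellular serpins, of which 0 were higher (0 also at an unadjusted p under 0.05). The shares over all genes were 3.58% lower and 1.98% higher, and with so few genes these counts are no result about the list. Serpinb6b stood at 9.78 with NR4A3 siRNA and LPS, against 11.49 with control siRNA and LPS. Without LPS Serpinb6b stood at 7.65 with NR4A3 siRNA, against 10.30 with control siRNA. Serpinb6b fell with NR4A3 siRNA by 2.18 ± 0.22 (adjusted p of 0.011, limma) and rose with LPS by 1.66 ± 0.22 (adjusted p of 0.0034). Serpinb9 encodes an inhibitor of granzyme B. Serpinb9 stood at 10.26 with NR4A3 siRNA and LPS, against 11.16 with control siRNA and LPS. Without LPS Serpinb9 stood at 7.60 with NR4A3 siRNA, against 9.48 with control siRNA. Serpinb9 fell with NR4A3 siRNA by 1.39 ± 0.22 (adjusted p of 0.032) and rose with LPS by 2.17 ± 0.22 (adjusted p of 0.0016). Serpinb1a, an inhibitor of neutrophil serine proteases, rose with LPS by 1.24 ± 0.12 (adjusted p of 0.0011), and its silencing effect of -0.08 was not called (adjusted p of 0.71). Serpinb6a was called for neither effect. Mouse Serpinb6 and Serpinb9 genes have close relatives, so their probes may share signal. The silencing calls of Ctse, Cst7 and Serpinb9 were lost under repeated quantile normalization, under cyclic loess and without a filter, and that of Serpinb9 also under the robust fit.

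**Figure D4:**
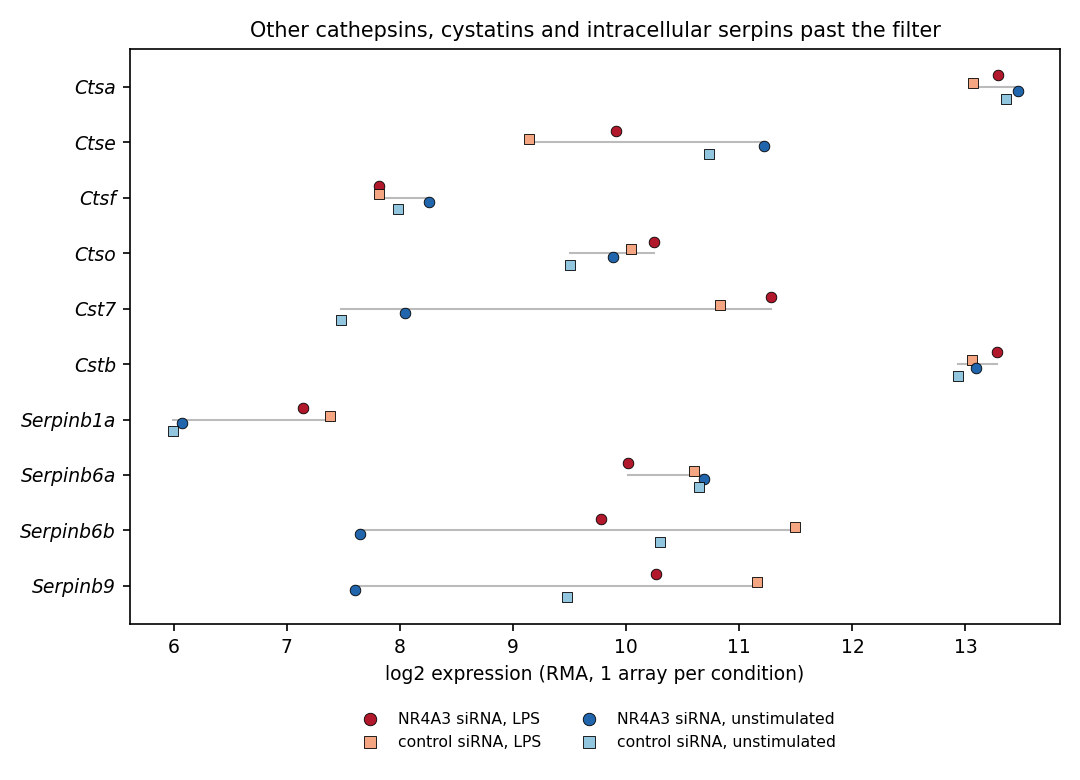
Levels (log2, 1 point per array) of the other cathepsin, cystatin and serpin genes past the filter, with NR4A3 siRNA (circles) and control siRNA (squares), with LPS (red shades) and without (blue shades). Cst7 has both LPS arrays at 10.83 or above and both unstimulated arrays at 8.04 or below, and Ctse has its LPS arrays on the low side.

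The genes that build and acidify the lysosome around these proteases were counted by list. Over all genes 14.4% were called lower with LPS and 15.6% higher. With LPS, 10 of 16 other lysosomal proteases and hydrolases were lower and 2 higher, with a median effect of -0.44, beside 0.00 over all genes. Among them the phospholipase gene Pla2g15 fell by 1.24 ± 0.10, the dipeptidyl peptidase gene Dpp7 by 0.95 ± 0.12 and the DNase gene Dnase2a by 0.92 ± 0.13, while the acid phosphatase genes Acp2 (0.95 ± 0.10) and Acp5 (0.61 ± 0.10, also on the osteoclast list) rose. Among 18 glycosidases, lipases and their helpers, LPS left 7 lower and 2 higher (median -0.29). The mannosidase gene Man2b1 fell by 1.32 ± 0.10, and the cholesterol carrier gene Npc2 rose by 0.67 ± 0.10. The 10 genes for lysosomal transcription factors and enzyme sorting had 5 lower and 1 higher (median -0.38). The sorting receptor genes Sort1 and Igf2r fell by 1.66 ± 0.10 and 1.14 ± 0.11. Of 20 membrane proteins 4 were lower and 3 higher (median -0.17), with the channel gene Tpcn1 down by 1.56 ± 0.10 and the chloride transporter gene Clcn7 up by 1.47 ± 0.10. Of 17 vacuolar ATPase subunits 2 were lower and 1 higher (median -0.09). Counts of the membrane proteins and the subunits lay near or below the shares of all genes and are no result about those lists. Repeated quantile normalization shifted the LPS balance further down, to 4 subunits lower and 0 higher (median -0.23), 5 membrane proteins lower and 1 higher, and 10 glycosidases and lipases lower and 1 higher. That setting also moved the LPS calls over all genes, from 1653 higher and 1524 lower to 1435 higher and 1779 lower.

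For silencing the lysosomal lists gave few calls, where 1.98% of all genes were called higher and 3.58% lower. In lists of this size single calls are no result about the list. With NR4A3 siRNA 1 of 17 vacuolar ATPase subunits was higher (Atp6v1c1, 0.60 ± 0.11), and 0 were lower. The median subunit effect was 0.25, beside 0.03 over all genes. Of the subunits 17 of 17 averages were above 0, beside 5957 of 10592 over all genes, and 9 had an unadjusted p under 0.05 (limma). At that unadjusted p, 8 membrane proteins, 6 glycosidases and lipases and 6 transcription factor and sorting genes were also higher, with 1, 0 and 0 lower. The share of all genes at that unadjusted p was not counted, so no such count here can be set against it. Averages within a list come from the same 4 arrays, so they are not independent. For transcription factors and sorting the median was 0.39, with 10 of 10 averages above 0 and 1 call, Tfeb, the regulator of lysosomal genes (0.57 ± 0.10). Of the membrane proteins 1 was higher, the cholesterol transporter gene Npc1 (0.58 ± 0.10), and 1 lower, Laptm4b (-0.98 ± 0.10), with a median of 0.19. Of the glycosidases 1 was higher, Idua (0.50 ± 0.10), with a median of 0.17. Of the other hydrolases 0 were called by limma, with 5 higher and 0 lower at an unadjusted p under 0.05 and a median of 0.19. The calls of Atp6v1c1, Tfeb, Npc1 and Idua were lost under repeated quantile normalization, under cyclic loess and without a filter, whereas that of Laptm4b held in all 8 alternatives.

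**Figure D5:**
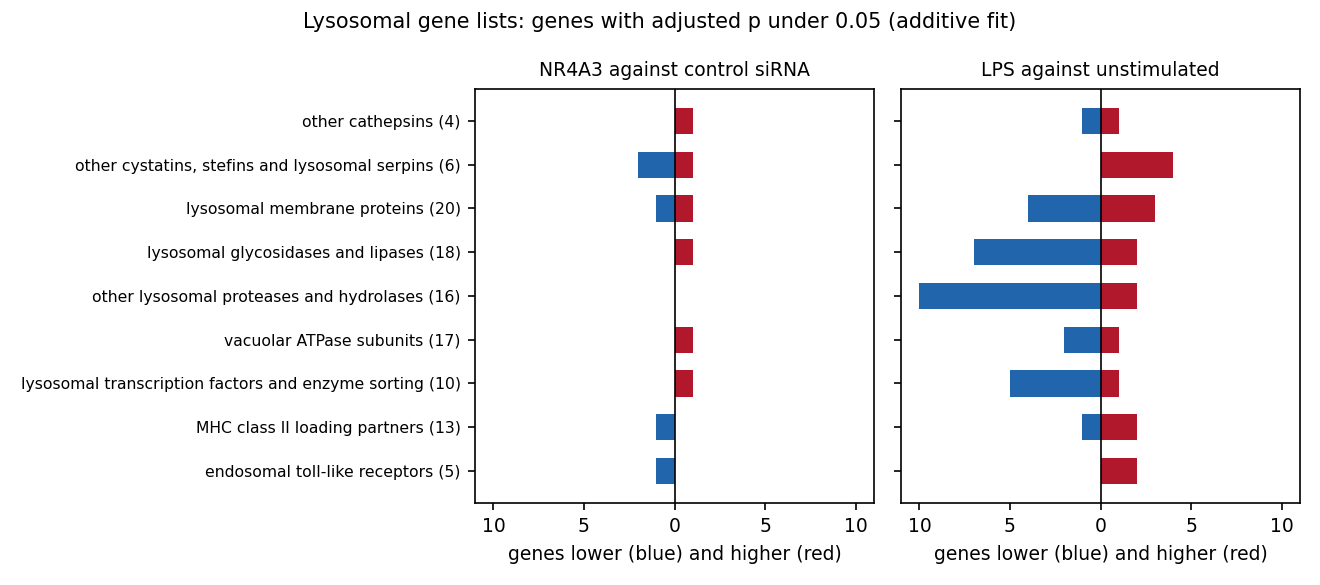
Genes called lower (blue, to the left) and higher (red, to the right) in the additive fit for NR4A3 siRNA (left panel) and LPS (right panel), by list, with the number past the filter in brackets. For LPS, 10 of 16 other lysosomal proteases and hydrolases are lower, beside 14.4% of all genes. For NR4A3 siRNA none of the 9 lists plotted has more than 2 genes in either direction.

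The partners of the proteases in antigen presentation and in sensing nucleic acids were counted last. Over all genes 15.6% were called higher and 14.4% lower with LPS, and 1.98% higher and 3.58% lower with NR4A3 siRNA. Of 13 MHC class II loading partners 2 were higher with LPS, H2-Ob (1.09 ± 0.10) and H2-Oa (1.02 ± 0.13), which encode the chains of an inhibitor of peptide loading. H2-DMa, a chain of the loading catalyst itself, fell with LPS by 0.68 ± 0.11. With NR4A3 siRNA 1 partner was lower, H2-Oa (-0.84 ± 0.13, adjusted p of 0.031, limma), a call lost under cyclic loess and without a filter. The list's median was -0.03 for LPS and -0.10 for silencing. Its LPS counts, 2 higher and 1 lower of 13, lay near or below the shares of all genes. Neither they nor the single silencing call are a result about the list. Of the 5 endosomal toll-like receptors Tlr3 (1.48 ± 0.10) and Tlr7 (0.93 ± 0.10) rose with LPS, with a list median of 0.36. With NR4A3 siRNA 1 receptor was lower, Tlr8 (-0.63 ± 0.12, adjusted p of 0.041), lost under repeated quantile normalization, cyclic loess and no filter, and the list median was -0.37. With 5 receptors these counts are no result about the list.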

How the data were processed

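RNA from 4 conditions, with 1 array each, was hybridised to Affymetrix Mouse Gene 1.0 ST arrays. The deposited values are log2 expression, summarised by the authors with RMA including quantile normalization, per the labels. Affymetrix Expression Console 1.1 is named, per the submitters' processing notes. The genome build of the array annotation is not given in the sources used here.

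Of 28856 probe sets, 21789 had 1 gene symbol, 1621 several and 5446 none, and a gene with several probe sets was read at its brightest. Named genes were those whose symbol the rule or a list held, plus for each list up to 3 called genes per direction with the largest effects, and the 3 genes most like Ctsk. The 10 genes, the lists and the markers were chosen with earlier results of these data known. The level of 13 that defines bright genes and the reading of H2-Ea were chosen after the values were seen.

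Log2 differences between arrays have no test. Average effects were fitted with limma 3.58.1 in R 4.3.3 (siRNA plus LPS, eBayes, Benjamini-Hochberg over 10592 genes, adjusted p threshold 0.05). The residual of that fit holds the difference of the LPS effects and array noise, with 1 residual and 4.76 prior degrees of freedom. Whether each array had a culture of its own is not stated. The fit was tested on simulated data with independent noise, no siRNA effect and no difference of LPS effects. It called 97 of 100 genes raised by 1 (log2) with LPS and 100 of 100 raised by 2. It also called 11 unchanged genes for LPS and 0 genes for the siRNA. Such data cannot show how calls fare where LPS effects differ between the siRNAs. Alternatives were median centring, repeated quantile normalization, cyclic loess, a filter at the 75th percentile (8.67), no filter, averaging probe sets per gene, a level-dependent (trend) or robust variance, and other fold thresholds. Quantile steps within RMA remove shifts common to all genes, and the small number of arrays limits the precision. Promoter windows came from RefSeq (GRCm38.p6) and were matched by symbol.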

Additional observations from a re-analysis of the deposited data

Results flagged for a closer look

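Some genes had differences of opposite sign in the 2 states compared, each from single arrays, and none of these contrasts was tested. For NR4A3 against control siRNA, Ctsc stood at 0.10 with LPS and -0.11 without, a gap (unstimulated minus LPS) of -0.22. Ctss stood at 0.05 with LPS and -0.06 without, a gap of -0.10. Lgmn stood at -0.10 with LPS and 0.06 without, and Cst3 at -0.16 with LPS and 0.00 without, and the gap was 0.16 for either gene. For LPS against unstimulated cells, Ctss stood at 0.06 under NR4A3 siRNA and -0.05 under control siRNA, a gap (NR4A3 minus control siRNA) of 0.10. Cst3 stood at -0.05 under NR4A3 siRNA and 0.11 under control siRNA, a gap of -0.16. All of these are far smaller than 1.5-fold.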

How the results depend on the processing

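No paired analysis was possible because each condition has 1 array and the labels number no replicates. Fits without an array leave no residual degrees of freedom. At a threshold of 2-fold, 0 of the 10 genes passed for silencing with LPS, for silencing without LPS and for LPS under NR4A3 siRNA. At the lower threshold tried, LPS gave 2 of the 10 genes under NR4A3 siRNA (Ctsk higher, Lgmn lower) and 1 under control siRNA (Ctsk). For LPS under NR4A3 siRNA 0 of the 10 genes reached 1.5-fold under repeated quantile normalization or cyclic loess. In the additive fit 0 of the 10 genes were called for silencing without a filter. For LPS 2 were called under repeated quantile normalization (Ctsk, and Lgmn lower) and 3 with a level-dependent spread (Ctsk, Ctsz, and Lgmn lower). Without a filter more genes were tested; the cause of the other changes was not tested. Of 160 additive effects of the 10 genes under alternatives, 156 stayed on their side of the threshold, 3 of them with a change of sign (Ctsb under median centring and Ctss under 2 scalings, all for LPS and at most 0.04 in size), 1 lost its call, 3 gained one and 0 called values reversed. Over all genes the silencing calls numbered 589, against 370 under repeated quantile normalization, 267 under cyclic loess and 156 without a filter, and up to 789 when probe sets were averaged, and the share higher among them was 35.7%, against 18.7% under cyclic loess. Of the 10 genes 6 averaged 13 or more, near the array maximum; whether compression affects their small differences was not tested.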
